A study of Mus musculus with 32 samples.

Results

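Histone H3 lysine 9 trimethylation (H3K9me3) is a mark of silenced chromatin, and the sites described here passed a threshold for it after birth in Morc1 knockout germ cells and not in heterozygous ones. They are 9180 autosomal bins of 1 kb, out of 494208 that were called in at least 1 of 8 peak lists (1.86%). They were chosen by the calls themselves. A bin was called in a list when at least 50% of it lay in peaks. A member bin was called in the knockout (KO) at postnatal days 0 and 3 (P0, P3), in neither heterozygous (het) list of those days, and in none of the 4 embryonic lists. Adjacent member bins formed 7923 runs. Because calls in all 8 lists made the choice, the values of the members in those lists are a description and were not tested.

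The lists came from male germ cells (gonocytes) of testis, taken from mice with the Mvh-Venus transgene, a fluorescent reporter of germ cells that all groups shared. The het groups were Morc1 (+/-) and the KO groups Morc1 (-/-), each at embryonic days E13.5 and E16.5 and at P0 and P3. Each of these 8 groups had 2 H3K9me3 samples in the labels and 1 deposited peak list. The controls were heterozygous, and no wild-type list was used. A single list per group leaves no spread between replicates to set a difference against, so no p-value between genotypes is given. Intervals given here are 95% Wilson intervals for counting error only, and they treat bins or runs as independent, which neighbours are not. Peak lists hold no expression, so the germ cell label was not checked against marker genes.

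H3K9me3 is written by enzymes such as SETDB1 and the SUV39H proteins and is bound by HP1 proteins. At many retrotransposons it is placed by KRAB zinc finger proteins, which recruit TRIM28 and SETDB1. MORC1 is a nuclear ATPase of the germ line that is known to be needed for retrotransposon silencing and for fertility in male mice. Gonocytes lose most DNA methylation in the embryo and regain it before and around birth, which is the interval these lists span.

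The gene starts that lay in member bins were mostly poor in CG. RefSeq promoters of GRCm38.p6 were used, each running from 250 bases before to 50 after a gene start. Of 31396 autosomal promoters, 86 had their start in a member bin (0.274%), belonging to 80 genes. Member bins made up 0.383% of all 2397867 autosomal bins. The sequences of 6 of them are shown so that the kind of promoter can be seen. Capitals mark every CG, which reads the same on both strands. All are written 5′ to 3′ along the gene's strand. The runs that held Gm40050, Gm30863 and Olfr1249 were among the longest with a gene start. Acrv1, Bmf and Gm46827 were chosen after their values were seen.
Gm40050 (long noncoding RNA, chr3:54601339-54601638, minus strand): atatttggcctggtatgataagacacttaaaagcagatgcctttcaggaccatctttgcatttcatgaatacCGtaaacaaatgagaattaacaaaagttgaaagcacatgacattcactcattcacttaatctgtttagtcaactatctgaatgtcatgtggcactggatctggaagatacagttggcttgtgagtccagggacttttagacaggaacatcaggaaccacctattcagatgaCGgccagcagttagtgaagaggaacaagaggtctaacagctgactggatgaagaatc
Gm30863 (long noncoding RNA, chr13:37532909-37533208, minus strand): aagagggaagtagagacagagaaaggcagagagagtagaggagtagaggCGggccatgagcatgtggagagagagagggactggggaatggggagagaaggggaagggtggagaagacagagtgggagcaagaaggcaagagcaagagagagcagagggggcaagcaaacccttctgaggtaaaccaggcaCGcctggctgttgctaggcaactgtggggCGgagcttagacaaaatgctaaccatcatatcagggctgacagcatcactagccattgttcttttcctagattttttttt
Olfr1249 (olfactory receptor, chr2:89630847-89631146, minus strand): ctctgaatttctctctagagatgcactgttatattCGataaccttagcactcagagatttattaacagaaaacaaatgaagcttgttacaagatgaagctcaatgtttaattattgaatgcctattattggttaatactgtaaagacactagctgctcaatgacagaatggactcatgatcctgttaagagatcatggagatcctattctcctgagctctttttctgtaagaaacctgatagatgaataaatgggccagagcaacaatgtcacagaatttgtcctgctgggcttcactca
Acrv1 (acrosomal vesicle protein of spermatids, chr9:36692970-36693269, plus strand): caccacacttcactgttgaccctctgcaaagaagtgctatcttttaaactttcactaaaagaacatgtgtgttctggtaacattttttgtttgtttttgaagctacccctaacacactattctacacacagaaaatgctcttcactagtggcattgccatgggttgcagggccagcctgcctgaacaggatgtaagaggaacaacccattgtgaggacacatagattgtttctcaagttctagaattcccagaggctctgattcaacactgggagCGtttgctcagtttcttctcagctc
Bmf (pro-apoptotic BCL2 modifying factor, chr2:118544538-118544837, minus strand): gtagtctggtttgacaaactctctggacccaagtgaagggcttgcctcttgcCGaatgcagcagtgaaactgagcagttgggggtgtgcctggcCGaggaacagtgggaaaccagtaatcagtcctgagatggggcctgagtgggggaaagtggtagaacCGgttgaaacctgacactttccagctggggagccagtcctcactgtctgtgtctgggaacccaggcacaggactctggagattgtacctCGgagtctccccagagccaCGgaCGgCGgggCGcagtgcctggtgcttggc
Gm46827 (long noncoding RNA, chr3:135608174-135608473, plus strand): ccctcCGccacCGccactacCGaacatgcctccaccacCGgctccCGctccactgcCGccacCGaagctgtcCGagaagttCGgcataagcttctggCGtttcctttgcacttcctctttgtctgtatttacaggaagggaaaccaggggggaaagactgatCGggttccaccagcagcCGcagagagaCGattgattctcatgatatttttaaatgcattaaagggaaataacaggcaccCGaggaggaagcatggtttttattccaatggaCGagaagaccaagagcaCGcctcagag

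The Gm40050 promoter held 2 CG dinucleotides, that of Gm30863 held 3, those of Olfr1249 and Acrv1 held 1 each, that of Bmf held 8, and that of Gm46827 held 16, the most among the 86. In the lists, all 300 bases of the Gm40050, Gm30863, Olfr1249 and Gm46827 promoters lay in KO peaks at both P0 and P3. For Acrv1 the covered length was 297 bases at P0 and 300 at P3, and for Bmf 170 and 300. No base of these 6 promoters lay in a het peak at either stage. Inside the runs, however, het peaks covered 114 bases for Gm40050 and 287 for Acrv1 at P3, and 328 for Bmf at P0. The runs of the other genes shown had no het base at P0 or P3. A start in a member bin did not always mean a covered promoter. Olfr96, whose sequence is not printed, had its start in a run of 3 kb, yet no base of its promoter lay in a KO peak at P0 or P3.

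Over the 86 promoters the median number of CG was 3 and the median GC content 47.2%, against 7 and 53.0% over all autosomal promoters. At least 10 CG were present in 4 of the 86 (4.65%, interval 1.82 to 11.4%), in 20.3% of promoters in bins called in any list and in 44.0% of all promoters. The sequence of a promoter played no part in the choice of members. The low CG content was not particular to KO. Promoters that gained calls after birth in both genotypes had a median of 3 CG and a median GC content of 47.3%, and 1.86% of those 161 reached 10 CG (0.636 to 5.33%). The 41 promoters in bins new after birth in het only had a median of 2 CG and a median GC content of 44.3%. Of these 41, 8 reached 10 CG (19.5%, 10.2 to 34.0%). Of the 86 promoters, 35 belonged to protein-coding genes. Among those were 6 olfactory receptor promoters (17.1%), beside 4.69% of all 20085 protein-coding promoters and 7 of the 14 in het-only bins. Others belonged to Spata31d1c, Prss29, Themis, Il12b, Clec5a, Smyd1 and Tnrc6b, which were picked after their values were seen; the first 2 lay in runs of 2 kb. Themis acts in T cell development, Il12b encodes a cytokine subunit and Smyd1 is a methyltransferase of heart and skeletal muscle.

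The members were small as binned. Of the 7923 runs, 6853 (86.5%) were a single bin, 917 had 2 bins, and 153 (1.93%, 1.65 to 2.26%) reached 3 kb. Only 26 reached 4 kb and the longest, a single run, spanned 6 kb. The equivalent bins with the genotypes exchanged, new after birth and called in het at P0 and P3 but in KO at neither, numbered 10605 in 6292 runs, of which 17.5% (16.6 to 18.5%) reached 3 kb. Bins new after birth in both genotypes numbered 21627 in 15531 runs, and 7.18% of those runs reached 3 kb (6.78 to 7.60%). Small size was not particular to new KO-only sites. Among bins called in an embryonic list and after birth in KO only, 86.2% of runs were single bins and 2.13% reached 3 kb (1.78 to 2.55%). The share of KO-only runs of 3 kb or more also moved with the peaks and bins used. It was 28.4% with the longer 50% of each list, 3.74% without peaks of the most common length and 3.09% with 75% of a bin required, each time below the share of het-only runs. The chart of run lengths shows the 3 sets of new bins.

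**Figure D1:**
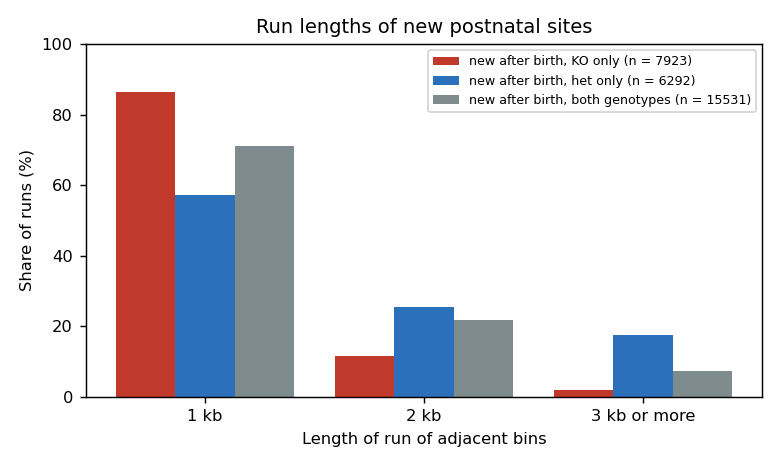
Share of runs (%) of 1 kb, 2 kb and 3 kb or more among bins new after birth in KO only (red), het only (blue) and both genotypes (grey). Single bins made up 86.5% of KO-only runs, 57.1% of het-only runs and 71.0% of runs in both genotypes.

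There were 0.866 KO-only bins per het-only bin, while the KO lists were the larger ones after birth. On the autosomes the KO list held 89020 peaks over 324.0 Mb at P0 and 82590 over 303.8 Mb at P3, against 82082 over 309.0 Mb and 77632 over 278.0 Mb in het. Of 46235 bins that were new in KO at both stages, 9180 lacked a het call at both (19.9%, 19.5 to 20.2%), 15428 (33.4%) had a het call at a single stage, and 46.8% had one at both. Of 37460 bins that were new in het at both stages, 10605 lacked a KO call at both (28.3%, 27.9 to 28.8%). With equal peak numbers in both genotypes the ratio was 0.763. When a bin had to be free of any base in the lists that must lack a call, 4517 KO-only and 7962 het-only bins were left, a ratio of 0.567.

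The members lay on every autosome at similar density. They ranged from 3.23 bins per Mb on chromosome 7 to 4.45 on chromosome 13, with 3.83 over all. KO-only bins were fewer than het-only bins on all autosomes except chromosomes 11 and 19, where the ratios were 1.30 and 1.27. The lowest ratio was 0.728 on chromosome 3. In windows of 1 Mb, 10.3% of 2399 windows held no KO-only bin and 22.6% held no het-only bin. The densest window held 17 KO-only bins, whereas the densest for het-only bins held 34. The variance of the window counts was 2.25 times their mean for KO-only and 5.30 times for het-only bins. These counts are of bins, and het-only runs were longer, with a mean of 1.69 bins against 1.16. How much of the difference follows from run length was not tested. The median gap to the next run was 167 kb for KO-only and 161 kb for het-only runs, and 7.25% and 14.2% of gaps were of 10 kb or less.

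Inside the member bins no other list reached the threshold for a call, but peaks of those lists covered part of many bins. By the rule each other list covered under 500 bases of a bin. At E13.5, 98.1% of member bins had no base in a het peak and 97.3% had none in a KO peak. At E16.5 the shares were 84.2% and 87.4%. After birth, 63.6% of the bins had no base in a P0 het peak and 71.5% had none in a P3 het peak. Over all 6 lists other than the KO lists at P0 and P3, 4517 bins (49.2%) had no called base. Whole coverage in KO at both stages together with no base elsewhere was seen for 1244 bins (13.6%). The mean covered length per bin was 825 bases in KO and 105 in het at P0, and 862 in KO and 81.8 in het at P3. The het-only bins were cleaner, with 27.8 bases covered in KO at P0 and 21.6 at P3.

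The name of the group, new sites in KO only, therefore holds at the level of the call and not for every bin. Just inside the threshold lay 1249 member bins whose KO coverage at the lower stage was less than 50 bases above 500, and 810 whose het coverage at the higher stage was within 50 bases below it. Just outside it lay 1524 bins that fell short by up to 50 bases in KO at the lower stage, and 842 that were called in het at the higher stage by less than 50 bases, all other conditions being met.

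**Figure D2:**
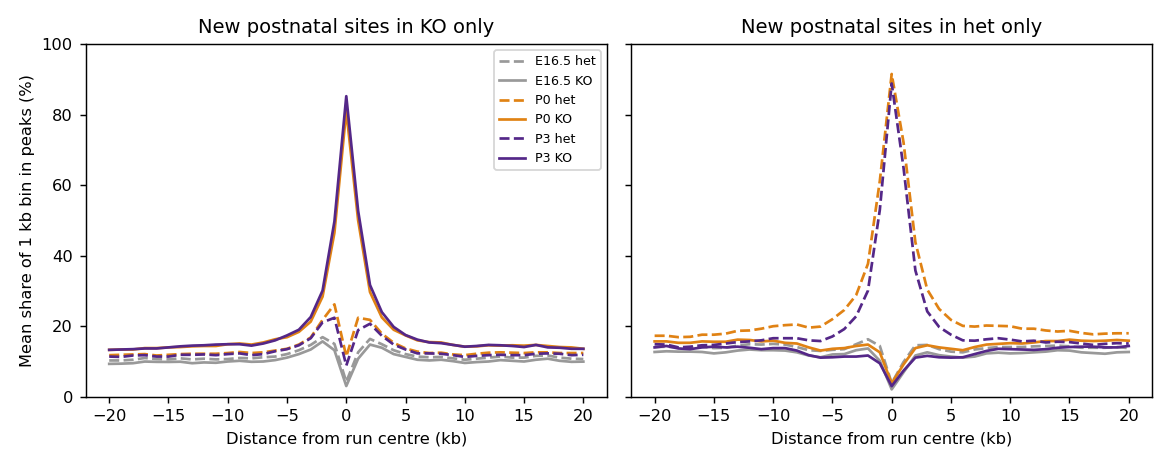
Mean share (%) of each 1 kb bin covered by peaks against distance (kb) from the run centre, for KO-only runs (left) and het-only runs (right), with het dashed and KO solid at E16.5 (grey), P0 (orange) and P3 (purple). At the centre of KO-only runs KO peaks covered 81.1% at P0 and 85.2% at P3, and het peaks covered 11.4% and 8.84%, less than the 16.8% and 16.6% found 3 kb to the left.

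Around the runs both genotypes had H3K9me3 peaks, and at 20 kb their cover was near or below the autosomal average. In the profile about the run centres, het peaks at P0 covered 11.4% of the central bin, 16.8% of the bin 3 kb to its left and 11.8% of the bin 20 kb to its left. KO peaks at P0 covered 81.1%, 21.3% and 13.3% at the same places. Over all 2397867 autosomal bins of 1 kb, P0 het peaks covered 309.0 Mb, P0 KO peaks 324.0 Mb and E13.5 het peaks 159.7 Mb. In E13.5 het the central bin had 0.436% and the bin 3 kb away 6.34%. The central bin thus lay below its near flanks in the het and embryonic profiles. In P0 het the highest value was 26.2%, 1 kb to the left, and the centre was close to the level at 20 kb. The rule limits the coverage at the centre, and the flanks adjoin bins that it chose, so the shape is a description.

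Many runs were attached to a het site, and how many depended on the threshold. At P0, 3316 of 7923 runs (41.9%, 40.8 to 42.9%) overlapped or abutted a het peak, and at P3 2590 did (32.7%, 31.7 to 33.7%). At 1 or both stages 53.3% did (52.2 to 54.3%), against 23.5% of het-only runs with KO peaks (22.5 to 24.6%). The share at 1 or both stages was 36.9% when 25% of a bin was required, 69.4% with 75% and 44.0% with the longer 50% of each list. With no base allowed in the lists that must lack a call it was 0.0786%, since that rule removes overlap. The median distance to the nearest het peak was 0.265 kb at P0 and 0.795 kb at P3. For het-only runs the median distance to a KO peak was 3.91 and 6.05 kb. Only 20% of KO-only runs at P0 and 24.6% at P3 lay over 10 kb from any het peak. The curves of distance show this at both stages, and beyond about 20 kb they converge.

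**Figure D3:**
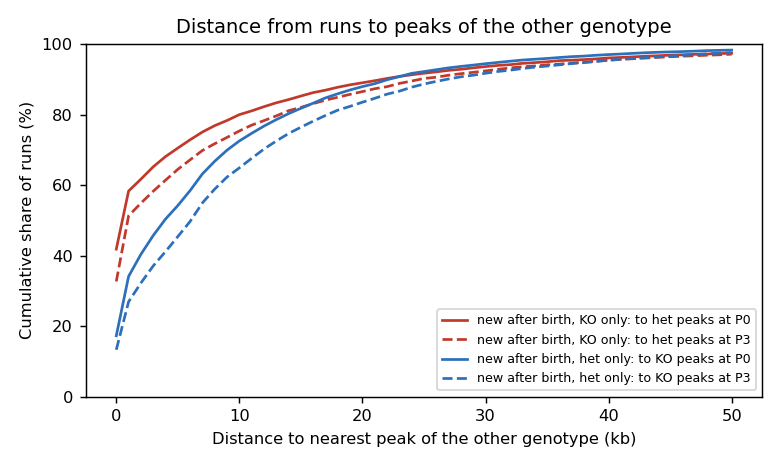
Cumulative share of runs (%) within a given distance (kb) of the nearest peak of the other genotype, for KO-only runs to het peaks (red) and het-only runs to KO peaks (blue), at P0 (solid) and P3 (dashed). At P0 58.3% of KO-only runs and 34.1% of het-only runs lay within 1 kb.

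The KO peaks that carried the runs fell into distinct kinds. A carrier peak that shared no base with a het peak of its stage stood alone. At P0, 3077 runs (38.8%, 37.8 to 39.9%) had such a carrier. Another 4325 (54.6%) sat on a KO peak that also overlapped a single het peak, so that the member bin was an extension of a shared site. A further 521 (6.58%) sat on a KO peak that joined 2 or more het peaks into 1. At P3 the shares were 44.5%, 48.5% and 6.97%. Runs that stood alone at both stages numbered 2462 (31.1%, 30.1 to 32.1%), whereas 3231 of the 6292 het-only runs (51.4%, 50.1 to 52.6%) did so.

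Carrier peaks that stood alone were shorter than joined ones. Their median length was 1285 bp at P0 and 1473 bp at P3, against 3728 and 4383 bp for carriers joined to het peaks. This was not particular to KO. For het-only runs the medians were 2706 bp alone and 6080 bp joined at P0, and 2365 and 5666 bp at P3. The shortest length in the lists, apart from a single peak of 970 bp, was 1001 bp. It was also the most common, and the carriers of 13.9% of runs at P0 and 14.5% at P3 had it. Among all autosomal KO peaks the shares were similar, at 15.1% and 15.2%. From P0 to P3 the carrier was longer in 54.4% of runs, shorter in 40% and equal in 5.58%.

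The 10 longest runs showed both kinds. The longest spanned 6 kb at chr5:44247001-44253000, between Tapt1 and Ldb2, the latter a cofactor of LIM homeodomain proteins. There no embryonic list had a call, P0 het had none, P0 KO covered all 6 kb, P3 het 0.326 kb and P3 KO 5.75 kb. Its carrier stood alone at P0 and joined 2 het peaks at P3. A run of 5 kb at chr1:129308001-129313000 lay in Thsd7b, a gene of the thrombospondin repeat family. It was covered over 4.41 kb at P0 and in full at P3 in KO and had no base in any other list. The nearest het peaks were 24.6 kb away at P0 and 24.7 kb at P3, so this run stood clear of het sites.

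A run of 5 kb at chr5:19988001-19993000 lay in Magi2, which encodes a synaptic and podocyte scaffold. KO covered 4.52 kb of it at P0 and 4.68 kb at P3, and the other 6 lists covered none. By contrast, the run of 5 kb at chr5:21159001-21164000, between Ptpn12 and Gsap, filled gaps. Its carrier overlapped 3 het peaks at P0 and 2 at P3, and het covered 0.293 and 0.237 kb inside the run. The 5 kb run at chr13:111639001-111644000, between Gpbp1 and Mier3, was joined to 1 het peak at each stage, and that at chr17:10147001-10152000, between Pabpc6 and Qk, to 1 at P0 and 3 at P3. At chr1:21319001-21324000, between Gsta3 and Khdc1a, no list but the KO lists at P0 and P3 had a base in the run, yet het peaks lay 0.206 kb away at P0 and 1.19 kb away at P3. Its carrier joined 2 het peaks at P0 and 1 at P3.

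The remaining 3 of the 10 were runs of 4 kb, of which there were more than these 3. They were on chromosome 1 because ties were ordered by chromosome and start. The run between Maip1 and Spats2l (57747001 to 57751000) was covered over 3.85 kb at P0 and 3.73 kb at P3 and that between Kcne4 and Scg2 (79214001 to 79218000) over 3.78 and 3.54 kb. Both stood alone at both stages. The run in Nav1 (135570001 to 135574000), a neuronal microtubule-binding protein gene, was covered over 3.65 and 3.58 kb. It stood alone at P3 and was joined to 1 het peak at P0. None of these 3 runs had a base in a het or embryonic peak.

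Position in genes was not used to choose the members. A bin counted as genic when its midpoint lay in the body of a protein-coding gene. Of the member bins, 3275 (35.7%, 34.7 to 36.7%) were genic, against 19.7% of the het-only bins (19 to 20.5%), 32.5% of the bins new in both genotypes (31.9 to 33.1%) and 24.9% of all bins called in any list. The share among all autosomal bins was 40.9%. The KO-only share exceeded the het-only share on 19 of 19 chromosomes and the share of bins new in both on 16 of 19. No test over lists was possible with 1 list per group.

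**Figure D4:**
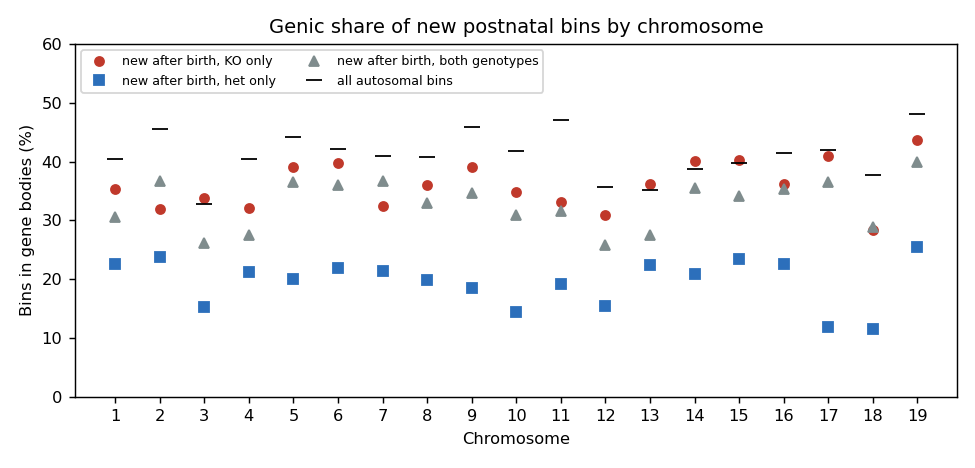
Share (%) of 1 kb bins with their midpoint in a protein-coding gene, by chromosome, for bins new after birth in KO only (red circles), het only (blue squares) and both genotypes (grey triangles), with all autosomal bins as black dashes. KO-only shares ranged from 28.3% to 43.6% and het-only shares from 11.6% to 25.4%.

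Relative to the space available, KO-only bins were less tilted away from genes than the other sets. They occurred at 3.34 bins per Mb of gene body and 4.17 per Mb between genes, a ratio of 0.800 that ranged from 0.558 to 1.06 over chromosomes. The ratio was 0.354 for het-only bins (0.185 to 0.533), 0.695 for bins new in both genotypes and 0.478 for all called bins. Bins called in KO only after birth that had been called in an embryonic list gave 0.486. Runs that stood alone at both stages were genic in 43.2% of cases (41.2 to 45.1%), and the other KO-only runs in 32.9% (31.7 to 34.2%). The equivalent shares of het-only runs were 22.8% (21.4 to 24.3%) and 17.3% (16.0 to 18.7%), so the difference between the genotypes was present in both kinds of run.

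Gene bodies covered more of the space around KO-only than around het-only runs, which is not independent of the runs' own place in genes. Within 50 kb on each side of a run, leaving out the 5 bins about its centre, gene bodies covered a median of 24.0% around KO-only runs (quartiles 0 and 80.2%) and 0% around het-only runs (0 and 45.8%). E16.5 het peaks covered a median of 7.83% of the same space around KO-only runs (quartiles 3.74 and 14.3%) and 11.1% around het-only runs (5.34 and 19.5%). For P0 het peaks the medians were 9.35% and 15.5%. The het lists were used to choose both sets, so these medians are descriptions. In the KO lists the order depended on the distance. At 5 kb to the left of the run centre, P0 KO peaks covered 16.9% around KO-only and 13.6% around het-only runs, and P3 KO peaks 17.4% and 11.2%. At 20 kb to the left, P0 KO peaks covered 13.3% and 15.7%, and P3 KO peaks 13.3% and 14.0%, the same order as for the het peaks. The gene body ranges overlapped widely between the sets. Around runs new in both genotypes the medians were 21.9% for gene bodies and 8.65% for E16.5 het peaks. For runs of bins called in at least 1 list they were 17.7% and 8.72%.

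Member bins fell in 1900 of 20665 autosomal protein-coding genes (9.19%), and het-only bins fell in 809 (3.91%). Most of the 1900 genes, 1209, held a single member bin, 96 held 5 or more and 9 held 10 or more. Of the 809 genes with het-only bins, 116 held 5 or more of those. Of the 1900 genes, 1532 held no het-only bin, and 368 held bins of both kinds. Among genes with 5 or more bins of 1 kind, 49 had KO-only and no het-only bins and 31 the reverse. Genes with a member bin were long, with a median of 123 kb against 17.5 kb for all genes. This was not particular to KO, since the median for genes with a het-only bin was 177 kb.

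Members were found more often in longer genes. A member bin was present in 1.15% of genes under 20 kb, 9.45% of those of 20 to 100 kb, 37.6% of those of 100 to 300 kb and 78.2% of those of 300 kb or more. Per Mb of gene body the density rose less, from 1.70 to 2.71, 3.63 and 4.01 bins over the same classes. Het-only bins had densities of 0.843, 1.34, 1.87 and 3.5 per Mb. KO-only bins were therefore about as far ahead in the 3 shorter classes, with 2.01, 2.02 and 1.94 per het-only bin, and nearly level in genes of 300 kb or more, with 1.15. Along genes of 20 kb or more with a known strand (7569 genes), members showed no concentration at either end. The 20% of the body nearest the start held 18.5% of 2401 bins (16.9 to 20.1%), and the 20% nearest the end held 19.6%.

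The 20 genes with the most member bins held between 7 and 14 each and were long, with a median of 1110 kb. Because they were ranked by KO-only bins, their excess over het-only bins is no result. The covered lengths given for these and the other genes include the member bins themselves, so they too are descriptions, and the KO lists covered more of the genome after birth as a whole. Cdh13, which encodes a membrane-anchored cadherin without a cytoplasmic tail, held 14 KO-only and 3 het-only bins in 1185 kb. E13.5 peaks covered 67.4 kb of the gene (het) or 73.2 kb (KO). E16.5 peaks covered 119 kb in het, against 118 kb for KO. For P0 the lengths were 110 kb in het versus 149 kb in KO, and for P3 135 kb versus 162 kb.

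Ltbp1, whose product tethers latent TGF-beta in the matrix, held 13 KO-only bins and no het-only bin in 387.0 kb. Its E13.5 coverage was 11.1 kb (het) versus 10.5 kb (KO), and its E16.5 coverage 23.4 kb versus 24.1 kb. After birth het covered 26.2 kb at P0, then 31.7 kb at P3, where KO covered 47.1 kb, then 58.4 kb. Pdzd2, a gene for a PDZ domain protein, held 11 KO-only bins and no het-only bin. Its covered length was 9.76 kb in het against 18.2 kb in KO on E13.5 and 23.1 against 21.2 kb on E16.5. After birth it was 35.6 kb in het against 62.9 kb in KO at P0 and 56.3 against 80.6 kb at P3. In Ltbp1 the genotypes were close in the embryo, whereas in Pdzd2 the KO list already covered more at E13.5.

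Robo2, a receptor for Slit guidance cues, held 12 KO-only and 3 het-only bins. Dcc, the netrin receptor, and Opcml, a membrane-anchored adhesion protein, each held 8 KO-only bins and no het-only bin. Dcc was covered over 68.1 kb in het against 95.5 kb in KO at P0 and over 61.9 against 96.4 kb at P3, and Opcml over 71.5 and 103 kb and over 67.0 and 103 kb. Prkce, which encodes protein kinase C epsilon, had 9 KO-only bins and no het-only bin, with 30.3 kb in het against 58.6 kb in KO at P0 and 39.8 against 63.8 kb at P3. Cacna2d3, a calcium channel subunit gene, held 8 and no het-only bin. Macrod2 was the exception among the 20, with 11 KO-only and 15 het-only bins in 1998 kb. Fhit, a gene at a common fragile site, held 10 KO-only bins beside 6 het-only bins.

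**Figure D5:**
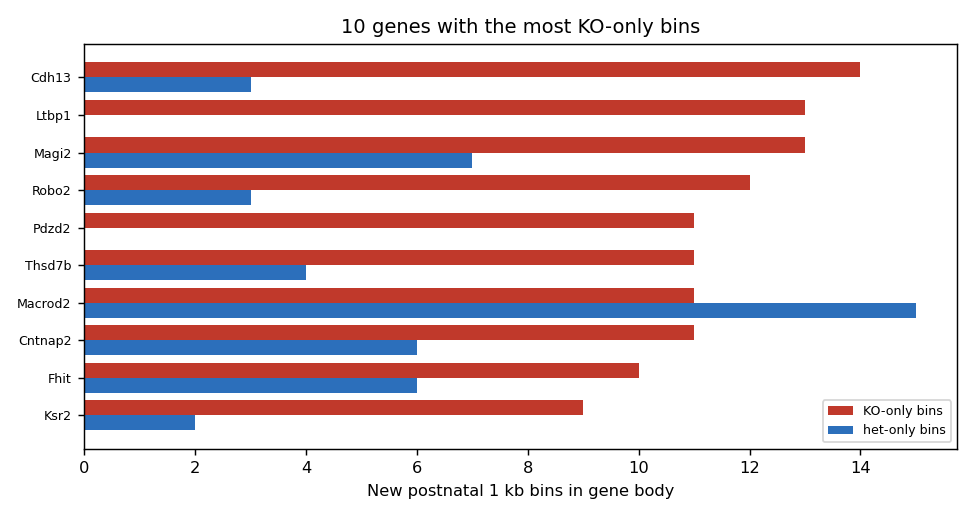
Number of new postnatal 1 kb bins in the gene body for the 10 genes with the most KO-only bins (red), with het-only bins of the same genes (blue). Cdh13 leads with 14 KO-only bins, and of these 10 genes Macrod2 alone has more het-only (15) than KO-only (11) bins.

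Among genes of 20 kb or more, the share of the body in member bins was highest in Txndc8, a thioredoxin of spermatids, with 5 bins in 25.11 kb (19.9%). Peaks covered 8.38 kb of it in het and 13.1 kb in KO at P0, and 8.40 against 13.6 kb at P3. Wnt8b, a secreted signalling ligand, followed with 4 bins (19.2%). It had no called base in het and 3.58 kb in KO at P0, and 1.40 against 3.48 kb at P3. Plac8 (3 bins, 14.5%) had no base in any het list and 3.40 and 3.69 kb in KO at P0 and P3. Them4, a thioesterase gene, had 3 bins and no base in het, with 3.19 and 3.44 kb in KO at P0 and P3 and 1.00 kb in E16.5 KO. Itga7, a laminin-binding integrin gene, had 3 bins, with 1.40 kb in het against 4.04 kb in KO at P0, then no het base against 3.11 kb in KO at P3. The choice of these genes by their share in member bins favours low het coverage.

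The 5 windows of 1 Mb with the most member bins held 16 or 17 each, and 4 of them are described. At chr4:58000001-59000000, which includes Txndc8, 17 KO-only bins stood beside 9 het-only bins. At chr16:9000001-10000000, with Grin2a, an NMDA receptor subunit gene, as its only protein-coding gene, there were 17 and no het-only bin. Of these 17, 3 lay in Grin2a. At chr5:26000001-27000000, which includes Dpp6, a potassium channel partner gene, there were 16 KO-only and 2 het-only bins. The window chr12:109000001-110000000 held 16 and 1. It contains Rtl1, a retrotransposon-derived gene of the imprinted Dlk1-Dio3 domain. Het also gained sites in these 4 windows: in the order given, 13, 19, 14 and 25 bins were new in both genotypes.

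Gene groups were read against the 9.19% of all protein-coding genes with a member bin and the 3.28 member bins per Mb of all gene bodies. Of 50 germline and meiosis genes, 1 held members (2%, 0.354 to 10.5%), at 0.958 bins per Mb, and the interval includes the share of all genes. The gene was Sycp2, which encodes a protein of the synaptonemal complex, with 2 bins and 1.27 kb covered in het and 3.05 kb in KO at P0, and 2.83 against 6.03 kb at P3. Het-only bins were found in 3 of the 50.

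Of 25 genes of spermatogonial stem cells, 3 held member bins (12.0%, 4.17 to 30.0%) and none held het-only bins. Zbtb16, a transcription factor needed to maintain these stem cells, held 3. It was covered over 7.95 kb in het against 18.9 kb in KO at P0, and over 12.6 against 13.9 kb at P3. Taf4b, a germ cell subunit of TFIID, held 2, with 6.90 against 11.9 kb at P0 and 6.70 against 10.3 kb at P3. Upp1, a uridine phosphorylase gene, held 1. The interval around 12.0% includes the share of all genes. The density was 5.05 member bins per Mb, from only 6 bins.

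Of 35 matched genes of H3K9 methylation and transposon silencing, 4 held members (11.4%, 4.54 to 26.0%), at 3.06 bins per Mb. Hells, a chromatin remodeller needed for DNA methylation, held 2. It had no called base in the embryonic lists, 2.52 kb in het against 5.77 kb in KO at P0, and 2.35 against 5.96 kb at P3. Tet3, which oxidizes 5-methylcytosine, held 2, with 6.65 against 15.3 kb at P0 and 5.72 against 6.05 kb at P3. At E13.5 the KO list already covered more of Tet3, 11.0 kb against 6.18 kb in het, and at E16.5 the lengths were 3.91 and 3.67 kb. Ehmt1, an H3K9 methyltransferase gene, held 1. Of 56 chromatin remodelling and histone modifying genes, 5 held members (8.93%, 3.87 to 19.3%). Smarca2, a SWI/SNF ATPase gene, held 3 and had no called base in any embryonic list, 1.00 kb in het against 3.35 kb in KO at P0, then none in het against 4.52 kb in KO at P3.

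Axon guidance and synaptic adhesion genes held members in 43 of 59 (72.9%, 60.4 to 82.6%). They are long, with a median of 649 kb, and per Mb they held 3.22 member bins, close to the 3.28 of all genes. Their het-only density was 3.30 per Mb against 2.11 in all genes. The 7 of 28 cadherin genes with members (25%, 12.7 to 43.4%) carried 27 member bins, 14 of them in Cdh13, or 4.21 per Mb. Potassium channel genes held members in 22 of 91 (24.2%) at 3.38 per Mb. In the axon guidance and potassium channel groups the share of genes with a member was thus above that of all genes while the density was close to it.

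Transcription factor genes of the Hox, Pax, Sox, Fox, Tbx and Gata families held members in 9 of 131 (6.87%, 3.66 to 12.5%) and het-only bins in 2 (1.53%). They carried 20 KO-only and 3 het-only bins, led by Sox5 with 5 KO-only bins, Foxn3 with 4 and Sox6 with 3. Another 49 bins were new in both genotypes. The KO-only density of 3.45 per Mb was close to the 3.28 of all genes, and the het-only density of 0.517 was below their 2.11. Sox5 was covered over 53.4 kb in het against 90.6 kb in KO at P0, and over 83.2 against 106 kb at P3. Imprinted genes held members in 8 of 44 protein-coding genes matched (18.2%, 9.51 to 32.0%), each with 1 bin, and het-only bins in 1. The density was 2.82 member bins per Mb, below that of all genes. They included Slc22a18, Rtl1 and Ube3a. Ube3a had no called base in het and 2 kb in KO at P0.

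The Zfp, receptor and protocadherin lists held fewer KO-only than het-only bins. Zfp genes, which encode zinc finger proteins, held members in 12 of 391 (3.07%, 1.76 to 5.29%), with 16 KO-only and 35 het-only bins. Olfactory receptor genes held members in 6 of 1104 (0.543%, 0.249 to 1.2%) and het-only bins in 14. Vomeronasal receptor genes held members in 3 of 352 (0.852%) and het-only bins in 5, and protocadherin genes in 2 of 67 (2.99%) with 8 KO-only and 17 het-only bins. The 8 lay in Pcdh15 (5) and Pcdh7 (3), which are not in the protocadherin clusters. The Zfp list likewise took in long genes such as Zfp536, with 3 bins in 456.0 kb. In the first 3 of these families the interval lay below the share of all genes. Per Mb of gene body the KO-only densities were 1.17 for Zfp, 2.82 for olfactory receptor, 0.827 for vomeronasal receptor and 0.972 for protocadherin genes, so olfactory receptor genes, with a median length of 0.950 kb, were near the 3.28 of all genes and the others were below it. Among other RefSeq gene types, a member bin was held by 760 of 12408 long noncoding RNA genes (6.13%) and 61 of 8884 pseudogenes (0.687%). It was also held by 2 of 1136 miRNA genes (0.176%). Het-only bins were held by 3.23%, 0.743% and 0% of these types. In a separate count of miRNA hairpins, 1 of 919 (Mir7657) lay in a member bin.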

How the data were processed

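H3K9me3 was measured by chromatin immunoprecipitation and sequencing, with 2 samples in each of 8 groups. The authors deposited 1 peak list per group, which holds peak boundaries in bp (start, end), with no height, score or fold. Lists were assigned to groups by the stage and genotype in their names. The 16 H3 samples were not analysed here. The submitters' processing notes name mm10, bcl2fastq 2.20, cutadapt 1.18, Bowtie2 2.3.4.1, deepTools 3.5.0 and HOMER 4.10, with no role for each. The peak caller's settings, the use of H3 and the handling of replicates are not given in the sources used here. Sequencing depth is unknown, so a list's number of peaks may also follow its depth.

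Starts were read as 0-based and results are given 1-based; no header states this. Lists were cut into 1 kb bins with Python 3.11.15, numpy 2.4.6 and pandas 2.3.3, and plotted with matplotlib 3.10.9. The binning was tested on simulated peaks. Genes and promoters came from the RefSeq tables of GRCm38.p6, which is mm10. Intervals are Wilson intervals at 95%. The members, the 13 gene lists and the alternatives were chosen with earlier results of these data known. Lists that name genes cover protein-coding genes only.

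The named items were the 10 longest runs, the 20 genes with the most member bins, the 5 genes of 20 kb or more with the largest share in members, the 5 densest windows of 1 Mb, the 6 genes with a start in the longest runs, and up to 3 genes per list. Of the last 6 genes, those whose sequence is not printed are Gm6657, Olfr96 and Gm30248. The alternatives are listed in the closing section. A result on 1 of the named windows and on 1 of the named genes is not reported here.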

Additional observations from a re-analysis of the deposited data

Results flagged for a closer look

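The X chromosome was outside the comparisons, which used autosomes, and it also held bins of this kind. By the same rule 264 bins on it were new after birth in KO only, in 229 runs of up to 4 kb. A count of 0 would allow 3 bins if bins were independent, which neighbours are not, so that limit is no test of the 264. Another 520 were new in het only and 319 in both genotypes. There were 0.508 KO-only bins per het-only bin on the X, below the lowest ratio of any autosome (0.728). Of the new het bins on the X, 52.7% lacked a KO call (49.6 to 55.8%), against at most 31.3% on any autosome. The density was 1.60 KO-only and 3.16 het-only bins per Mb. The difference from the autosomes was not tested.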

How the results depend on the processing

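In 7 alternatives that changed the bins or peaks, KO-only bins stayed fewer than het-only bins, their genic share stayed above that of het-only bins (17.5 to 20%), and their share of runs of 3 kb or more stayed below (15.2 to 51% for het-only runs). The number of member bins fell to 4517 when no base was allowed in the lists that must lack a call, and otherwise lay between 7903 and 10430. The ratio of KO-only to het-only bins was 0.892 with 25% of a bin required, 0.840 with 75%, 0.567 with no base allowed and 0.763 with equal peak numbers. The share of runs of 3 kb or more was 2.34% with 25%, 3.09% with 75%, 28.4% with the longer 50% of each list and 3.74% without peaks of the most common length. The genic share was 37.0% with 25%, 34.7% with 75%, 36.7% with the grid shifted by 500 bp, 38.1% with no base allowed, 32.3% with the longer 50% of peaks and 45.4% with all RefSeq genes. The share of runs touching a het peak was 36.9% with 25%, 69.4% with 75%, 44.0% with the longer 50%, 50% without the most common length and 57.8% with equal peak numbers. It was 0.0786% with no base allowed, where the rule removes overlap by construction. For the other moves the cause was not tested. No paired analysis was possible because each list stands for a whole group and carries no replicate number, and for the same reason no replicate could be left out.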
